A study of Mus musculus with 9 samples.

Results

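Nascent transcription was followed for 8 genes of the RAF-MEK-ERK cascade and its close relatives in mouse CD8+ T cells. The 8 genes, taken by symbol, are Braf, Map3k8 and Map3k20 (kinases of the MAP3K tier), Ksr1 (a scaffold), Map2k1 and Map2k2 (MEK1 and MEK2), Mapk3 (ERK1) and Rps6ka1 (RSK1, a kinase that ERK activates). They are 8 of 37022 genes with a matched row in the files, and each was measured on the annotated transcript whose gene-body signal had the highest mean across libraries. All 8 passed the filter in the gene body and 6 of 8 in the pause region, the stretch near the transcription start. Rps6ka1 and Map3k20 were too weak there on the transcript used.

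The series examined nascent transcription in relation to T cell exhaustion, the loss of function under lasting stimulation. The 9 libraries form 3 groups of 3: CD8+ T cells under acute stimulation (Acute), under chronic stimulation (Chronic), and under chronic stimulation with inhibition of MEK (ChronicMEKi). All groups received 0.2 mM 5-ethynyl uridine, a uridine analogue that newly made RNA takes up, for 30 minutes before the labelled RNA was captured and sequenced. The mouse strain, age and genotype, the stimulus and its duration, and the inhibitor and its dose are not given in the sources used here, and the actinomycin D wells of the protocol were not analysed here. Nothing states that replicates came from separate mice or cultures, so p-values measure the spread between these libraries, which may be technical.

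As background, MAP kinase cascades pass a signal along 3 tiers of kinases, each of which phosphorylates the next. After T cell receptor engagement, RAS recruits RAF kinases, RAF phosphorylates MEK1 and MEK2, and these activate the ERK kinases, which drive immediate early genes and their own feedback inhibitors. MEK inhibitors block the MEK1 and MEK2 proteins, so their action does not have to appear in the transcription of the kinase genes themselves.

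The signal of a gene is coverage summed over its gene body, in arbitrary units, scaled between libraries by a trimmed mean of log ratios. Depth in reads is unknown, and differences between groups are on the log2(signal + 5) scale. Library totals of the deposited signal were close, at 48601757 to 52216192 units. A ribosomal RNA-like locus took 19.1 to 22.3% of it in Acute, 34.2 to 40.6% in Chronic and 29.0 to 36.1% in ChronicMEKi libraries, and its part in the results was not tested. Scaling to library totals instead moved the median gene by -0.49 between Chronic and Acute, 0.11 between ChronicMEKi and Chronic and -0.38 between ChronicMEKi and Acute. Without that locus in the totals these moves were -0.16, -0.01 and -0.17, and on the deposited scale -0.47, 0.13 and -0.34. Under library totals 1096 genes were higher and 6846 lower in Chronic than in Acute libraries, against 2875 and 2528 with the trimmed mean. For ChronicMEKi against Chronic the same counts were 1769 and 741 against 1583 and 1219, and for ChronicMEKi against Acute 955 and 4965 against 2291 and 1827. Every direction given here is set against that trimmed mean.

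The labelled cell type was checked against its markers. All 8 CD8+ T cell markers, among them Cd8a, Cd3e and Lck, were present in every group, with a summed signal of 26862 to 31628 in Acute, 18433 to 19791 in Chronic and 22832 to 24915 in ChronicMEKi libraries. Between Chronic and Acute 6 of the 8 were lower and none higher. The 8 myeloid markers summed to 317 to 386, 233 to 272 and 173 to 407, the 6 B cell markers to 695 to 852, 389 to 454 and 247 to 676, and the 3 erythroid markers to 3.38 to 40.7 over all libraries, with Hbb-bs at 0 in all Chronic ones. The 4 NK cell markers summed to 1558 to 1730, 1416 to 2859 and 2164 to 2290, mostly from Eomes, which CD8+ T cells also express, and the NK receptor gene Ncr1 was at 0 in all ChronicMEKi libraries. The CD4+ T cell markers Cd4 and Zbtb7b summed to 1040 to 1367, 1054 to 1383 and 1729 to 2016, and they moved in opposite directions. Cd4 had a mean of 442, 234 and 116 and was lower in each of the 3 comparisons (limma adjusted p of 0.0174, 0.0449 and 0.000119). Zbtb7b had 789, 1002 and 1769 and was higher in ChronicMEKi than in Chronic and Acute libraries (0.000484 and 7.41e-06). Of the regulatory T cell markers only Ikzf2 had a row, with a mean of 3564, 4442 and 11027. The part of these shifts in the results was not tested.

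The called differences lay in Map3k8, Map3k20, Braf and Ksr1, of the MAP3K and scaffold tier, and in Mapk3, while Map2k1, Map2k2 and Rps6ka1 were called in none of the 3 comparisons. Between Chronic and Acute libraries, Map3k20 and Mapk3 rose, Map3k8 fell and 5 of the 8 genes did not pass the test (limma adjusted p under 0.05). Over all 15942 genes tested, 33.9% were called there, 18% higher and 15.9% lower. With MEK inhibition under chronic stimulation, Braf, Ksr1 and Map3k8 rose and none of the 8 fell, where 17.6% of all genes were called, 9.93% higher and 7.65% lower. Against Acute, ChronicMEKi libraries had 4 of the 8 genes higher (Map3k20, Mapk3, Ksr1 and Braf) and Map3k8 lower, where 25.8% of all genes were called, 14.4% higher and 11.5% lower. The median differences of the 8 genes were -0.15, 0.32 and 0.22 in these 3 comparisons, against -0.02, 0.04 and 0.00 over all genes. These comparisons share libraries and are not independent of each other. Under library totals or the deposited scale 7 of the 8 genes were called between Chronic and Acute, 2 higher and 5 lower, and 6 (2 higher and 4 lower) with totals without the ribosomal RNA-like locus. Of all 15942 genes, 7942, 7847 and 5855 were called under these 3 scalings.

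**Figure D1:**
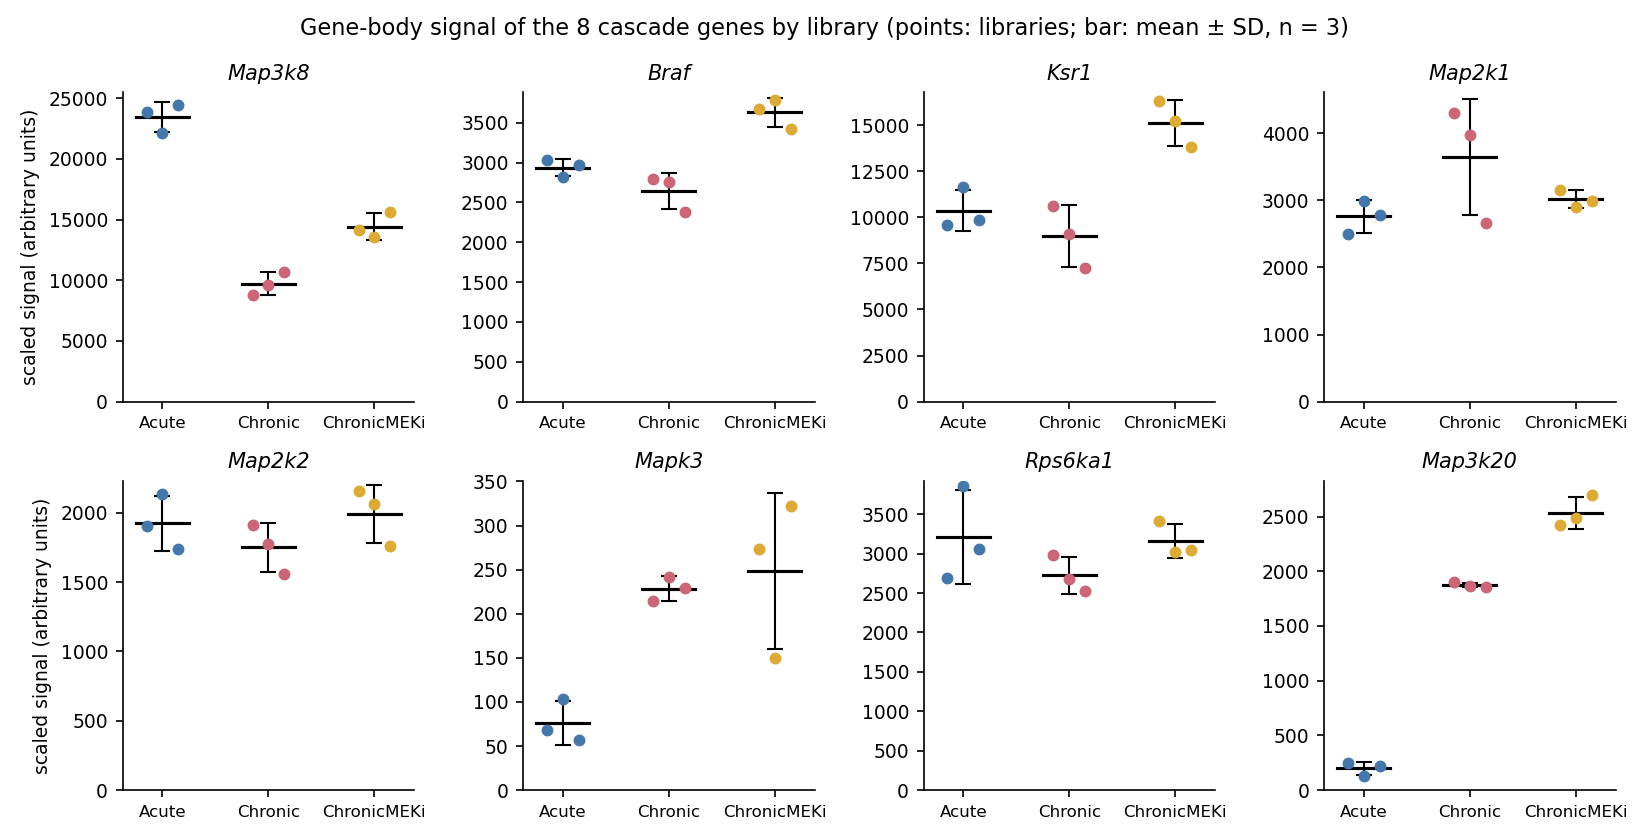
Scaled gene-body signal (arbitrary units, vertical axes from 0) of each of the 8 genes in the 9 libraries. Points are libraries and bars are the mean ± SD of 3 libraries. Map3k8 lies between 22099 and 24464 in Acute, 8807 and 10717 in Chronic and 13534 and 15625 in ChronicMEKi libraries, while Map2k2 overlaps in all groups.

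Map3k8 encodes TPL2 (COT), a MAP3K that phosphorylates MEK downstream of NF-kB-linked receptors and is held by the p105 precursor made from Nfkb1. Its gene lies at chr18:4331327-4353015 on the minus strand (GRCm38) and overlaps no other annotated gene. Gene-body signal was 23887, 22099 and 24464 in the 3 Acute libraries, 8807, 9632 and 10717 in the Chronic ones and 14127, 13534 and 15625 with MEK inhibition. The 3 groups did not overlap, and ChronicMEKi libraries lay between the other groups. Chronic was lower than Acute by a log2 difference of -1.28 (SE 0.09, limma adjusted p = 3.84e-09). ChronicMEKi exceeded Chronic by 0.57 (SE 0.09, limma adjusted p = 0.00017), and the level remained below Acute by a difference of -0.70 (limma adjusted p = 1.19e-05). All 3 calls held in each of the 20 other settings tried, with ranges of -1.77 to -1.21, 0.50 to 0.70 and -1.09 to -0.67. All 5 annotated transcript rows of the gene had these same 3 directions. In bulk libraries, fewer cells that transcribe a gene and less transcription per cell cannot be told apart.

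Map3k20 encodes ZAK, a MAP3K best known for activating the JNK and p38 branches, for example when ribosomes stall, so it is a relative of the RAF-MEK-ERK cascade more than a member of its core. It lies at chr2:72285637-72442610 on the plus strand. Gene-body signal was 245, 134 and 217 in Acute, 1897, 1866 and 1858 in Chronic, and 2420, 2484 and 2701 in ChronicMEKi libraries. Every library of the chronic groups was far above every Acute one, and all ChronicMEKi libraries were above all Chronic ones. Chronic exceeded Acute by 3.25 on the log2 scale (SE 0.18, 9.51-fold, limma adjusted p = 1.16e-10), and only 0.709% of all genes tested had a larger absolute difference. The step from Chronic to ChronicMEKi was 0.43 (SE 0.18, 95% interval 0.06 to 0.81) and did not pass the test (limma adjusted p = 0.11). It did pass in 4 of 20 settings. Among them were the fits without Acute replicate 2 (0.37, limma adjusted p = 0.0382) and of the compared groups alone (0.43, 0.00764). The mean over transcript rows passed too (0.57, limma adjusted p = 0.0356). All 6 transcript rows of the gene were higher in ChronicMEKi than in Chronic libraries, by 0.43 to 0.74. The row used had the smallest of these differences. Against Acute, ChronicMEKi was higher by 3.68 (SE 0.18, limma adjusted p = 7.58e-11). The annotated genes Zakit and Rpl36a-ps4 lie inside it on the same strand, so the source of reads there is uncertain.

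The share of Map3k20 signal that came from the first part of the gene differed between the 3 groups. Parts of genes were read from nested transcript rows, a comparison chosen after the values were seen and given without a test. The first part of the gene, chr2:72285794-72364843, is 50.4% of the span. Its share of the gene's signal (mean ± SD, n = 3) was 69.0% ± 2.41 in Acute, 46.8% ± 3.23 in Chronic and 58.1% ± 1.71 in ChronicMEKi libraries. By library the shares were 70.2, 70.6 and 66.2% in Acute, 50.4, 44.1 and 46.0% in Chronic and 56.5, 57.8 and 59.9% in ChronicMEKi libraries, so the 3 groups did not overlap. Per kb, the first part had 1.73 ± 0.50 in Acute, 11.1 ± 0.88 in Chronic and 18.6 ± 1.64 in ChronicMEKi libraries. The rest of the gene had 0.79 ± 0.25, 12.8 ± 0.66 and 13.6 ± 0.24. The Acute shares therefore rest on weak signal. The last part of the gene, 22.4% of the span, held 13.5% ± 3.47, 15.2% ± 1.74 and 11.3% ± 2.56 in Acute, Chronic and ChronicMEKi libraries, and these shares overlapped. Zakit and Rpl36a-ps4 overlap the gene, and their share in the signal of its parts was not tested. The exact limits of the counted regions are not given in the sources used here.

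The promoter window of Map3k20, the gene of the 8 with the largest difference from Acute, is shown with those of Ksr1 and Braf. Ksr1 and Braf rose with MEK inhibition, as did Map3k8, of which no window was used. The sequences are RefSeq's for GRCm38.p6, 250 bases before an annotated start, on the strand of the gene (plus for Map3k20, minus for Ksr1 and Braf). Capitals mark matches on either strand to 5 searched motifs: the ETS core CCGGAA, the AP-1 site TGANTCA, the cAMP response element (CRE) TGACGTCA, the GC box GGGCGG and the TATA box TATAAA.
Map3k20, chr2:72285387-72285636: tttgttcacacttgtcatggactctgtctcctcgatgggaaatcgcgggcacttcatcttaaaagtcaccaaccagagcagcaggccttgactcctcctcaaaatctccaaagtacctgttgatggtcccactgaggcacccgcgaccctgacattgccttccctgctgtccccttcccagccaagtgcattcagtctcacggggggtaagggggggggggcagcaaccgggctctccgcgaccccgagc
Ksr1, chr11:79146474-79146723: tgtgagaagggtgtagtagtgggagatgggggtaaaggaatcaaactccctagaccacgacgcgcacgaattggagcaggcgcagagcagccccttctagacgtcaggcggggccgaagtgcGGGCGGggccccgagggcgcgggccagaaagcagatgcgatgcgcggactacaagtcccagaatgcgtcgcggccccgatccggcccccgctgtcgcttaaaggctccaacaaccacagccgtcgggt
Braf, chr6:39725464-39725713: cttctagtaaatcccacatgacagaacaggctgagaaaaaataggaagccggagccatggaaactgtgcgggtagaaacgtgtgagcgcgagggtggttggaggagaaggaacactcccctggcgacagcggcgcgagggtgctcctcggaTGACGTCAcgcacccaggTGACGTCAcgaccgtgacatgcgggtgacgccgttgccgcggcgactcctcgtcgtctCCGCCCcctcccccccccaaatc
The Braf window held 2 CREs and 1 GC box, the Ksr1 window shown 1 GC box and the Map3k20 window shown none of the 5 motifs. Ksr1 and Map3k20 each have a second window in the table, not shown, which held 1 AP-1 site and 1 GC box for Ksr1 and none of the 5 motifs for Map3k20. Of 32851 windows of this length, 1.55% held a CRE, 32.7% a GC box, 12.0% an ETS core, 6.75% an AP-1 site and 12.4% a TATA box. A match is a description of the letters and not a bound site. Windows of 6 of the 8 genes were used here, and none was used for Mapk3 or Map3k8.

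Ksr1 encodes a scaffold that brings RAF, MEK and ERK together at the membrane. It lies at chr11:79013440-79146407 on the minus strand, with the antisense gene Gm11201 inside it. Its signal was 9586, 11656 and 9833 in Acute, 10607, 9082 and 7257 in Chronic and 16280, 15209 and 13824 in ChronicMEKi libraries. All ChronicMEKi libraries were above all others, while Acute and Chronic libraries overlapped. ChronicMEKi exceeded Chronic by 0.76 (SE 0.12, 1.70-fold, limma adjusted p = 0.000206), a call kept in all 20 other settings (0.62 to 0.89). The rise over Acute was 0.55 (limma adjusted p = 0.00273), but it fell short of the threshold under library totals (0.16, 0.444) and on the deposited scale (0.20, 0.337). Chronic against Acute gave -0.22 (limma adjusted p = 0.183). Without Chronic replicate 1, the highest of that group, it was -0.34 (0.0326), and the difference was also called under the 3 other scalings (-0.71 under library totals). All 7 transcript rows of Ksr1 were higher with MEK inhibition than in Chronic libraries. The part of the gene upstream of an internal start, 65.1% of its span, held 66.7% ± 2.93, 64.0% ± 4.41 and 66.7% ± 2.91 of the signal in Acute, Chronic and ChronicMEKi libraries, and these shares overlapped.

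Braf encodes the RAF kinase with the highest basal activity toward MEK. It lies at chr6:39603237-39725463 on the minus strand and overlaps Ndufb2 on the opposite strand and the pseudogene Fth-ps2 on its own. The signal was 3033, 2815 and 2969 in Acute, 2789, 2753 and 2381 in Chronic and 3678, 3787 and 3428 in ChronicMEKi libraries, and the groups did not overlap. ChronicMEKi exceeded Chronic by 0.46 (SE 0.10, 1.38-fold, limma adjusted p = 0.00225), a call lost only without a filter (0.39, 0.0913) among the 20 other settings. The difference from Acute, 0.30 (limma adjusted p = 0.0277), was less steady. It lost the call without any 1 of the Acute libraries (0.27 without replicate 1, 0.22 without replicate 2, 0.25 without replicate 3) or without ChronicMEKi replicate 1 (0.24) or 2 (0.26). The call was also lost without a filter (0.24, adjusted p = 0.336), with totals without the ribosomal RNA-like locus (0.14, 0.391), without trend and robust moderation (0.0765) and with the mean over transcript rows (0.29, 0.054). It was -0.08 under library totals and -0.04 on the deposited scale. Chronic against Acute was -0.16 (limma adjusted p = 0.231) and was called under the 3 other scalings (-0.65 under library totals). The last part of the gene, 8.90% of its span, held 24.3% ± 2.95, 24.2% ± 2.51 and 25.2% ± 2.57 of the signal in the 3 groups. Araf, which also encodes a RAF kinase, is on the X chromosome, which has no matched row in the deposited data, so it could not be measured.

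**Figure D2:**
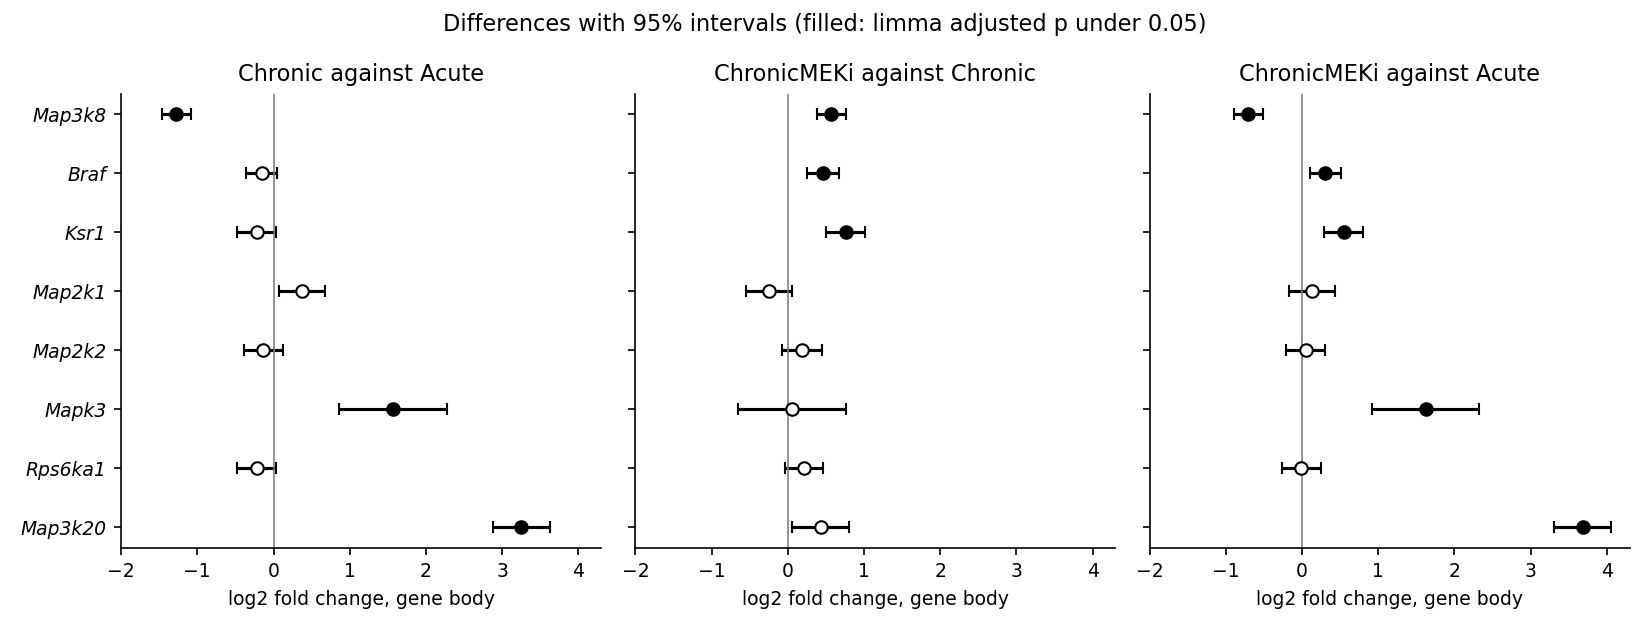
Log2 differences of gene-body signal in the 3 comparisons, with 95% intervals from limma, for the 8 genes. Filled points have a limma adjusted p under 0.05. The intervals of Map2k2 and Rps6ka1 include 0 in each panel, and Map3k20 stands at 3.25 and 3.68 against Acute.

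Map2k1 and Map2k2 encode MEK1 and MEK2, the proteins that MEK inhibitors bind, and neither gene was called in any of the 3 comparisons. Map2k1 (chr9:64185770-64253631, minus strand) overlaps Uchl4, Gm48855 and Gm24106 on the opposite strand. Its signal was 2497, 2994 and 2786 in Acute, 4304, 3966 and 2658 in Chronic and 3158, 2895 and 2993 in ChronicMEKi libraries. Chronic replicates 1 and 2 were above all other libraries, while Chronic replicate 3 lay among the Acute ones. The difference of Chronic from Acute was 0.37 (SE 0.14, 95% interval 0.07 to 0.68, limma adjusted p = 0.0534). It passed in 4 of 20 other settings, among them the fits without Chronic replicate 3 (0.59, 0.000227), without Acute replicate 2 (0.44, 0.036) and with the mean over transcript rows (0.41, 0.0425), and it turned to -0.12 under library totals and -0.10 on the deposited scale. ChronicMEKi against Chronic gave -0.24 (limma adjusted p = 0.29), and -0.46 (0.00388) without Chronic replicate 3. ChronicMEKi against Acute gave 0.13 (95% interval -0.17 to 0.43, limma adjusted p = 0.557), which was below 0 under the 3 other scalings (-0.25 under library totals).

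Map2k2 (chr10:81105915-81124697, plus strand, no overlapping gene) had 1904, 2132 and 1737 in Acute, 1913, 1778 and 1560 in Chronic and 2157, 2061 and 1758 in ChronicMEKi libraries. The 3 groups overlapped. Its log2 differences were -0.14 between Chronic and Acute (95% interval -0.39 to 0.12, limma adjusted p = 0.416), 0.19 between ChronicMEKi and Chronic (-0.07 to 0.44, 0.354) and 0.05 between ChronicMEKi and Acute (-0.21 to 0.31, 0.813). The last was below 0 under the 3 other scalings (-0.33 under library totals), and the first was called under library totals (-0.63) and on the deposited scale (-0.61).

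The ratio of the MEK genes within a library needs no scaling between libraries. The log2 ratio of Map2k1 to Map2k2 was 0.39, 0.49 and 0.68 in Acute, 1.17, 1.15 and 0.77 in Chronic and 0.55, 0.49 and 0.77 in ChronicMEKi libraries. The highest ChronicMEKi ratio lay just below the lowest Chronic one, and both round to 0.77. Chronic exceeded Acute by 0.51 and ChronicMEKi was below Chronic by a difference of -0.43. The two-sided exact permutation test gave 0.1 for each, which is its lowest possible p with 3 libraries a group, or 0.15 adjusted over 6 ratio tests, of which the 3 of this ratio are reported. ChronicMEKi and Acute differed by 0.08 (exact permutation p = 0.6, adjusted 0.72).

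Mapk3 encodes ERK1. Its gene is short, chr7:126759601-126765819 on the plus strand, with no overlapping gene. It had 67.9, 104 and 56.4 in Acute, 214, 242 and 229 in Chronic and 273, 150 and 322 in ChronicMEKi libraries. Every library of the chronic groups exceeded every Acute one, and ChronicMEKi replicate 2 was the lowest of them. Chronic exceeded Acute by 1.57 (SE 0.34, limma adjusted p = 0.00129) and ChronicMEKi exceeded Acute by 1.62 (SE 0.34, 0.00139). Both calls held in all 20 other settings, with ranges of 1.10 to 1.81 and 1.26 to 1.93. ChronicMEKi and Chronic differed by 0.05 (95% interval -0.66 to 0.76, limma adjusted p = 0.95). All 6 transcript rows with a mean signal of at least 50 were higher in Chronic and in ChronicMEKi than in Acute libraries.

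Rps6ka1 encodes RSK1, a kinase that ERK phosphorylates and that acts on translation and transcription factors. It lies at chr4:133847294-133887784 on the minus strand. Its signal was 2694, 3858 and 3062 in Acute, 2980, 2679 and 2520 in Chronic and 3408, 3023 and 3040 in ChronicMEKi libraries. No comparison was called, although all ChronicMEKi libraries lay above all Chronic ones. The differences were -0.22 between Chronic and Acute (limma adjusted p = 0.175), 0.21 between ChronicMEKi and Chronic (0.27) and -0.01 between ChronicMEKi and Acute (95% interval -0.26 to 0.25, 0.973). The first was called without Acute replicate 1 (-0.34, 0.0465) and under the 3 other scalings (-0.71 under library totals), and the last under library totals (-0.39, 0.0406).

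The 5′ part of Rps6ka1 held more of its signal in ChronicMEKi libraries than in the others. The part upstream of an internal annotated start, chr4:133874732-133887784, is 32.2% of the span. It held 7.15, 9.29 and 6.43% of the signal in Acute, 8.82, 12.0 and 9.28% in Chronic and 16.1, 18.7 and 13.6% in ChronicMEKi libraries. All ChronicMEKi libraries were above all others, and Acute and Chronic overlapped. In scaled signal the part had 249 ± 94.5 (SD, n = 3), 272 ± 44.1 and 509 ± 83.1. Per kb it held 39.0 ± 6.36 with MEK inhibition against 96.5 ± 7.37 in the rest of the gene, so it was the weaker part in that group too. This comparison was chosen after the values were seen and has no test. Gm12985 and Gm22523 on the same strand and Gm12977 on the opposite strand overlap Rps6ka1, and their share in the signal of that part was not tested.

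Of the 3 windows that the table holds for Rps6ka1, those before the upstream start and before the internal start that bounds the 5′ part are shown, because the signal was divided differently between these parts. The other window held none of the 5 motifs. They are RefSeq's (GRCm38.p6), on the minus strand, with capitals for the same 5 motifs.
Rps6ka1 upstream start, chr4:133887798-133888047: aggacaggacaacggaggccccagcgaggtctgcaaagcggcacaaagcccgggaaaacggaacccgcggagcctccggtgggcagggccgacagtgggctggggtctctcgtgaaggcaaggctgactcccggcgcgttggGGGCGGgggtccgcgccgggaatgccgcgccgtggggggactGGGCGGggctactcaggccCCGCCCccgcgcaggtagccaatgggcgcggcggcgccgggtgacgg
Rps6ka1 internal start, chr4:133874732-133874981: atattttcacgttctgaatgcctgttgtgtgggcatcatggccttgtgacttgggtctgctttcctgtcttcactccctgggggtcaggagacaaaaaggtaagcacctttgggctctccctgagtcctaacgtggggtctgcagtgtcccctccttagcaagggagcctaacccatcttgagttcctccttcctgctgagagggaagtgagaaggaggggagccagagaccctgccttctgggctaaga
The upstream window held 3 GC boxes, 1 of them read on the opposite strand as CCGCCC, and 74.4% G and C. The internal window held none of the 5 motifs and 54.4% G and C, against a median of 52.4% over all windows.

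**Figure D3:**
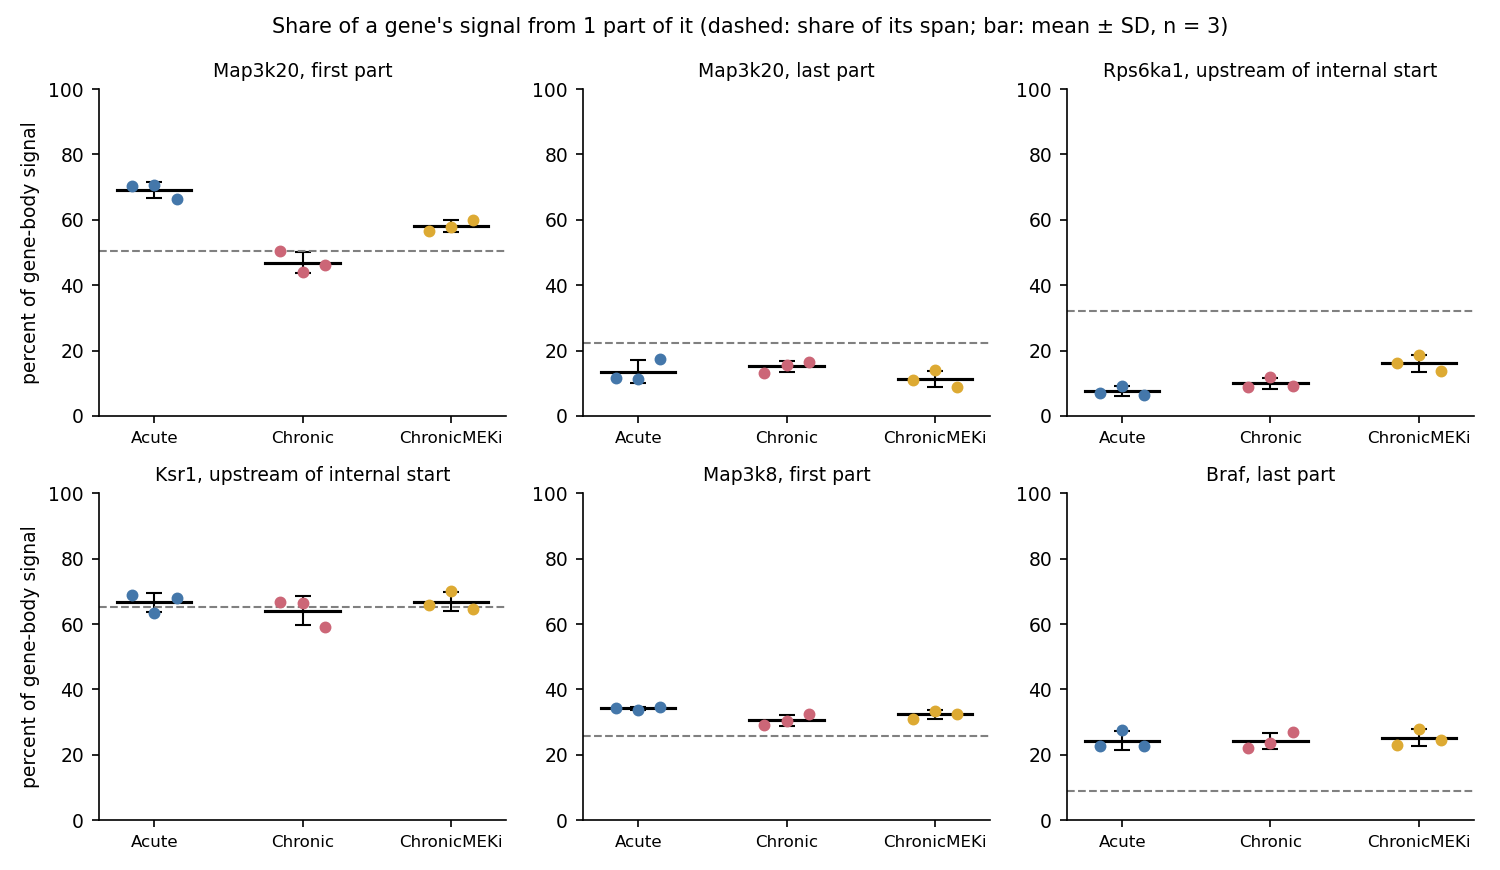
Percent of a gene's gene-body signal that came from 1 part of it, by library (points) with the mean ± SD of 3 libraries; the dashed line is the part's percent of the gene's span. The first part of Map3k20 stands at 69.0, 46.8 and 58.1% and the 5′ part of Rps6ka1 at 7.63, 10.0 and 16.1%. The first part of Map3k8 stands at 34.2, 30.6 and 32.4%, with all Acute libraries above the others. The last part of Map3k20 and the parts of Ksr1 and Braf overlap between groups.

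Levels were compared between genes per kb of the row's span. Map3k8 was the highest of the 8 in each group, at 1083 ± 56.9 per kb in Acute (SD, n = 3), 448 ± 44.2 in Chronic and 665 ± 49.7 in ChronicMEKi libraries. Map2k2 had the next highest mean in Acute (102 ± 10.6) and Chronic (93.2 ± 9.48). In Acute its spread overlapped that of Rps6ka1. In ChronicMEKi libraries Ksr1 (114 ± 9.26) and Map2k2 (106 ± 11.1) lay within their spread of each other. Rps6ka1 and Ksr1 did not differ beyond their spread in Acute (79.2 ± 14.7 and 77.9 ± 8.50) or in Chronic libraries (67.3 ± 5.76 and 67.5 ± 12.6). Braf lay lower, at 24.0 ± 0.92, 21.6 ± 1.85 and 29.7 ± 1.51. Map2k1 stood between these genes, at 40.7 ± 3.68, 53.7 ± 12.8 and 44.4 ± 1.96. Mapk3 had 12.2 ± 3.96, 36.7 ± 2.23 and 39.9 ± 14.2 per kb, so that it was above Braf in Chronic but not in Acute libraries. Map3k20 was the lowest in each group, at 1.27 ± 0.37, 11.9 ± 0.13 and 16.1 ± 0.94 per kb.

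The pause region was strong enough for a test in 6 of the 8 genes. From Acute to Chronic libraries Mapk3 rose and Map3k8 fell, where 10.7% of all 7678 genes were called (5.37% higher, 5.35% lower). Between ChronicMEKi and Chronic libraries Map3k8 rose, where 3% were called (1.56% higher and 1.43% lower), and between ChronicMEKi and Acute Ksr1 rose, where 5.95% were called (3.44% higher and 2.51% lower). Map3k8 had 1515, 1366 and 1305 in Acute, 588, 474 and 733 in Chronic and 877, 1016 and 1063 in ChronicMEKi libraries, with no overlap of the groups. Its difference was -1.23 between Chronic and Acute (SE 0.18, limma adjusted p = 2.46e-05) and 0.73 between ChronicMEKi and Chronic (0.0231). The second call was lost without Chronic replicate 1 (0.0584) or 2 (0.186) or without ChronicMEKi replicate 2 (0.102) or 3 (0.123), and without trend and robust moderation (0.237).

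Mapk3 had 43.3, 35.0 and 47.4 in the pause region in Acute, 107, 121 and 98.6 in Chronic and 92.2, 61.2 and 72.8 in ChronicMEKi libraries. Its 3 groups did not overlap, with Chronic highest. All Acute libraries were under the filter of 50, so the gene was tested only because it was higher in the other groups, and its call is no independent support for that difference. Chronic exceeded Acute by 1.28 (SE 0.38, limma adjusted p = 0.0257), a call lost without Acute replicate 1 (0.0569) or 2 (0.0687) and without Chronic replicate 1 (0.0621), 2 (0.0887) or 3 (0.0501). It was also lost under library totals (0.72, 0.222), on the deposited scale (1.21, 0.0789), without a filter (0.0549), with a filter of 100 (0.053) and with only the compared groups (0.0542). Ksr1 had 272, 273 and 216 in Acute, 370, 217 and 305 in Chronic and 447, 417 and 412 in ChronicMEKi libraries. ChronicMEKi exceeded Acute by 0.74 (SE 0.23, limma adjusted p = 0.0495), and this call was lost without any 1 of the 3 Acute (adjusted p of 0.0874, 0.0558 and 0.173) or the 3 ChronicMEKi libraries (0.168, 0.131 and 0.122). Under library totals it was 0.40 (0.44), and there Map3k8 was called lower in ChronicMEKi than in Acute libraries (-0.85, 0.0127).

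The other tested genes were weak near the start. Map2k1 ranged from 17.8 to 84.1, Map2k2 from 9.88 to 80.3 and Braf from 15.2 to 98.0 over the 9 libraries, and none of them was called. Neither Rps6ka1 nor Map3k20 was tested. In the order Acute, Chronic, ChronicMEKi, the means were 6.23, 13.3 and 33.2 for Rps6ka1 and 1.71, 9.25 and 28.3 for Map3k20. The Rps6ka1 values belong to the transcript with the upstream start, and its other annotated starts are not reported here. The difference between pause region and gene body, a measure of pausing, was called for none of the 6 genes in any comparison. It was called for 0% of the 7413 genes tested in each comparison, and at an unadjusted p under 0.05 for 749, 394 and 591 of them and for 0, 0 and 1 of the 6 (limma).

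**Figure D4:**
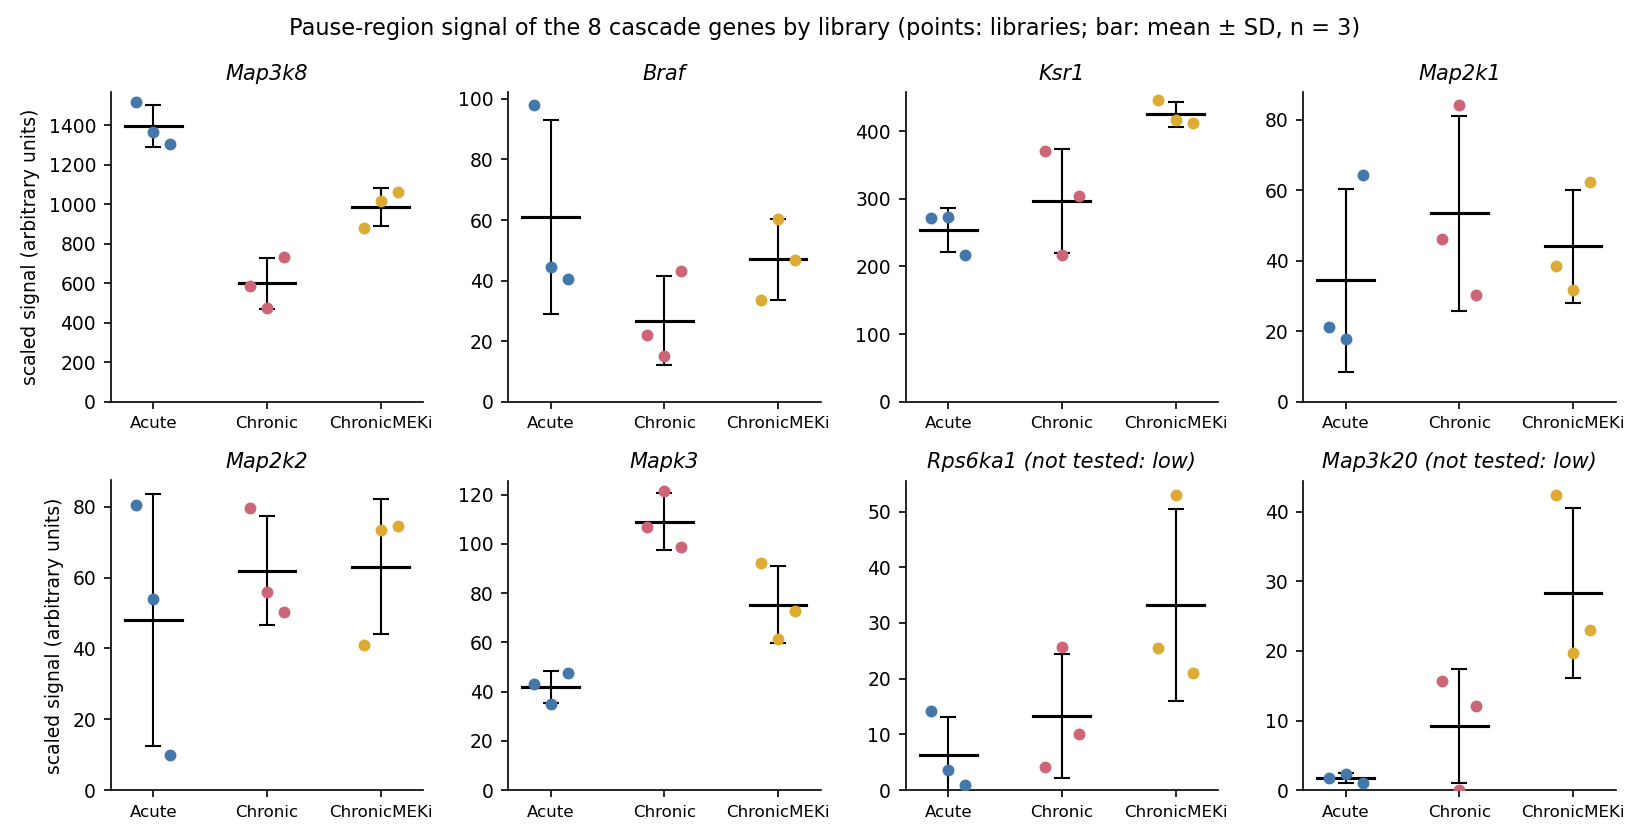
Scaled pause-region signal (arbitrary units, vertical axes from 0) by library for the 8 genes, with the mean ± SD of 3 libraries as bars. Map3k8 runs from 1305 to 1515 in Acute and from 474 to 733 in Chronic libraries, while Rps6ka1 and Map3k20, with no value above 52.9 and 42.4, were not tested.

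The rest of the pathway was read from lists of named genes. Of 29 other kinases, scaffolds and partners of the ERK cascade, 24 were tested in the gene body. Between Chronic and Acute libraries 3 rose and 4 fell, between ChronicMEKi and Chronic 4 rose and 1 fell, and between ChronicMEKi and Acute 5 rose and none fell, with medians of -0.01, 0.06 and 0.02. The shares called were 29.2, 20.8 and 20.8%, against 33.9, 17.6 and 25.8% of all genes. Under library totals the first count was 2 higher and 14 lower and the last 1 higher and 9 lower. The last count of 5 was 2 without Acute replicate 1 and 3 without Acute replicate 3 or ChronicMEKi replicate 1 or 3.

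Among them Rps6ka5, which encodes the ERK and p38 effector MSK1, had a mean signal of 1074 ± 65.7 in the Acute group (SD, n = 3), 2330 ± 382 in Chronic and 3372 ± 168 in ChronicMEKi libraries. It rose in all 3 comparisons, by 1.10, 0.55 and 1.65 (limma adjusted p of 1.26e-06, 0.00378 and 1.47e-08). Ksr2, the second KSR scaffold gene, fell by 1.60 from Acute to Chronic (limma adjusted p = 0.000367) and rose by 0.92 with MEK inhibition (0.0414). Hsp90ab1, an HSP90 chaperone gene, rose by 0.98 from Acute to Chronic (limma adjusted p = 4.5e-06) and stayed above Acute by 0.50 with MEK inhibition (0.0044). Mknk2, whose product MNK2 is a kinase activated by ERK and p38, rose by 0.60 with MEK inhibition (limma adjusted p = 0.00149). Iqgap1, a scaffold gene, was higher by 0.57 in ChronicMEKi than in Acute libraries (limma adjusted p = 0.000657).

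Of 35 genes of the JNK, p38 and ERK5 modules and related kinases, 28 were tested. Between Chronic and Acute 7 rose and 6 fell, between ChronicMEKi and Chronic 4 rose and 3 fell, and between ChronicMEKi and Acute 3 rose and 2 fell, with medians of -0.12, 0.04 and 0.01. The shares called were 46.4, 25 and 17.9%, against the same 33.9, 17.6 and 25.8% of all genes. The second count of 7 was 4 without Chronic replicate 2 or ChronicMEKi replicate 1 or 3, and the last count of 5 was 9 without Acute replicate 2 and 2 higher with 14 lower under library totals. Map3k9, a mixed-lineage kinase gene, fell by 1.79 from Acute to Chronic (limma adjusted p = 0.00203) and rose by 2.42 with MEK inhibition (0.000268). Map2k6, which encodes the p38 kinase MKK6, rose by 1.14 from Acute to Chronic (0.000144) and fell by 0.64 with MEK inhibition (0.0287). Mapk7, the ERK5 gene, rose by 1.15 from Acute to Chronic (limma adjusted p = 0.000416) and was above Acute by 0.91 with MEK inhibition (0.00428). Mapk6, the ERK3 gene, fell by 0.61 with MEK inhibition (limma adjusted p = 0.000135). Map2k3, which encodes the p38 kinase MKK3, and Mapkapk2, a p38 effector gene, were above Acute by 1.09 and 0.78 in ChronicMEKi libraries (limma adjusted p of 9.44e-06 and 7.34e-06).

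Of 26 listed targets and feedback genes of ERK, 22 were tested. Between Chronic and Acute 10 rose and 3 fell, and between ChronicMEKi and Chronic none rose and 15 fell, with medians of 0.70 and -1.26. Between ChronicMEKi and Acute 5 rose and 8 fell, with a median of -0.32. The shares called were 59.1, 68.2 and 59.1%. Many of these genes are known responders to ERK, and the list was chosen with results of these libraries known, so it is not independent evidence of direction.

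Dusp6, a phosphatase gene that ERK induces and whose product dephosphorylates ERK, had 2194, 2549 and 2772 in Acute, 2379, 2315 and 2491 in Chronic and 211, 208 and 193 in ChronicMEKi libraries. Its difference was -3.52 between ChronicMEKi and Chronic (SE 0.13, limma adjusted p = 5.23e-12) and -3.58 between ChronicMEKi and Acute (5.92e-12). Etv5, an ETS factor gene induced by ERK, had 117, 88.5 and 99.9 in Acute, 631, 853 and 603 in Chronic and 22.4, 71.3 and 53.1 in ChronicMEKi libraries. It fell by 3.80 with MEK inhibition (SE 0.36, limma adjusted p = 4.54e-07). Egr2, an immediate early factor gene, rose by 3.52 from Acute to Chronic (6.24e-10) and fell by 3.42 with MEK inhibition (3.23e-09). Ier3 rose by 3.31 between Acute and Chronic (limma adjusted p = 8.9e-07), while Fos, an AP-1 subunit gene, fell by 3.28 (0.000331). With MEK inhibition Fos and the immediate early factor gene Egr1 were below Acute by differences of -3.66 and -3.73 (limma adjusted p of 0.000163 and 2.78e-08). Among the 8 cascade genes, the largest absolute difference between ChronicMEKi and Chronic libraries was 0.76, that of Ksr1.

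**Figure D5:**
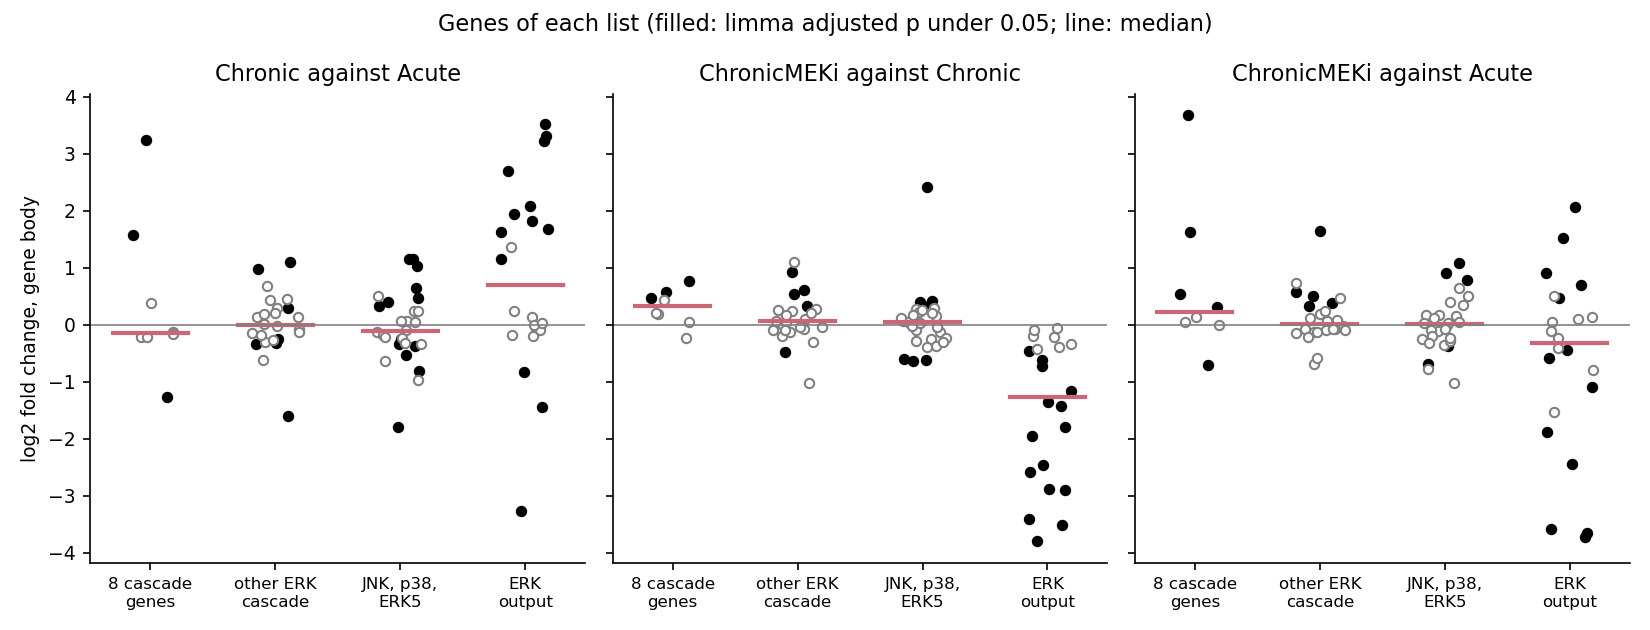
Log2 differences of gene-body signal in the 3 comparisons for the 8 cascade genes and 3 lists. Points are genes, filled where the limma adjusted p is under 0.05, and lines are medians, which for the ERK output list are 0.70, -1.26 and -0.32.

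For each of the 8 genes the closest patterns over the 9 libraries were taken among 10595 genes, by Pearson correlation of scaled log2 signal. These correlations are a description, since all genes share the libraries and their scaling. Slfn1 was among the 2 genes closest to Map3k8 (r = 0.99), with a mean signal of 2835 in Acute, 364 in Chronic and 810 in ChronicMEKi libraries. Those closest to Map3k20 were Iqgap3 and Serpine2 (0.99 each), and Serpine2 had 237, 2022 and 2286. Stat3 (0.99) and Ttc7 (0.98) were closest to Ksr1, and Stim1 (0.97) was among the 2 closest to Braf. Mapk3 was closest to Ap2m1 and Lrr1 (0.97 each), Map2k1 to Rps6kc1 and Btd (0.96 each), Map2k2 to Capn15 (0.96) and Raver1 (0.95), and Rps6ka1 to Pigt and Srrm2 (0.93 each).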

How the data were processed

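The authors deposited coverage signal per transcript, in 1 table read here as gene body and 1 as pause region, for the 9 libraries. The tables are named as counts. Of the nonzero gene-body values, 99.24 to 99.97% in a library were near whole multiples of a step. The step differed between libraries and was shared by both tables. What a step stands for is not given in the sources used here, so no count model was used. Per the submitters' processing notes, the tools were FastQC 0.12.0, Trim Galore 0.6.10, STAR 2.7.0a, SAMtools 1.19.2, deepTools 0.1.9 and R 4.1.2, with build mm10. The limits of the regions and the use of strand are not given in the sources used here.

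Of 118482 rows, 117346 matched GENCODE M21 (GRCm38) by transcript identifier with version, 383 without it, and 753 not at all. The matched rows cover chromosomes 1 to 19. A gene was tested where 3 libraries or more reached a signal of 50. For scaling, log ratios between libraries were averaged without weights after trimming (30% of ratios and 5% of levels at each end), and log2(signal + 5), which understates changes of weak genes, was fitted over all 9 libraries with limma 3.58.1 (trend and robust, R 4.3.3). Adjusted p-values are limma's, by Benjamini and Hochberg over all genes, with a threshold of 0.05. The ratio of Map2k1 to Map2k2 was compared by two-sided exact permutation tests. The procedure was tested on simulated data with changes of several sizes. In those data only a small part of the genes was changed, as many up as down. Under that setting fold changes were recovered without bias and few calls were false. Whether this holds in the 9 libraries, where counts of called genes changed with the scaling, was not tested. Most of the smallest known changes and part of the larger ones in the simulated data did not pass the threshold. A gene that was not called is therefore not shown to be unchanged. A first form of this test missed its criterion for recovered changes, and the criteria used, on false calls, bias and scale, were set after that. Joins used pandas 2.3.3 in Python 3.11.15, and figures matplotlib 3.10.9.

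The members, lists and tests were chosen with earlier results of these data known. The text names all 8 genes, Araf, Dusp6 and Etv5, up to 3 called genes with the largest difference per list and comparison, and the 2 closest patterns per gene; some genes that this rule names are not reported here, though list counts include them. Alternatives were other pseudocounts (0.5 and 20), filters, scalings, transcript rows and fits, the replicate number as a block, and leaving out each library.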

Additional observations from a re-analysis of the deposited data

How the results depend on the processing

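In the gene body, the calls of Map3k20, Mapk3 and Map3k8 against Acute and of Ksr1 and Map3k8 between ChronicMEKi and Chronic held in each of the 20 other settings. For Chronic against Acute, 7 of the 8 genes were called under library totals or the deposited scale and 6 where the totals left out the ribosomal RNA-like locus, against 7942, 7847 and 5855 of all genes. Between ChronicMEKi and Acute 3 of the 8 were called on the deposited scale, against 5565 of all genes. Map2k1 turned to -0.12 and -0.10 between Chronic and Acute under library totals and the deposited scale. Between ChronicMEKi and Acute the reversed differences under library totals, the deposited scale and totals without that locus were -0.25, -0.21 and -0.038 for Map2k1 and -0.33, -0.29 and -0.12 for Map2k2, and -0.080 and -0.039 for Braf under the first 2. Without a filter, Mapk3 (-0.018) reversed between ChronicMEKi and Chronic, and Map2k2 (-0.010) between ChronicMEKi and Acute. Leaving out 1 library at a time, uncalled differences near 0 changed sign: between ChronicMEKi and Chronic, Mapk3 ranged from -0.17 to 0.37, and between ChronicMEKi and Acute, Map2k2 from -0.079 to 0.14 and Rps6ka1 from -0.18 to 0.081. The log2 ratio of Map2k1 to Map2k2 between ChronicMEKi and Acute ranged from -0.0010 to 0.16 and was -0.17 in the pause region. The cause of these reversals was not tested.

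In the pause region, the call of Map3k8 between Chronic and Acute held in each setting, and the other 3 calls did not. For Chronic against Acute, 1 of the 8 genes was called in place of 2 without a filter or with a filter of 100. The same held on the deposited scale and with only the compared groups. Over all genes these settings called 828, 675, 584 and 631, in that order, against 823 in the main fit. Leaving out a library gave 1 to 2 of the 8 genes. Under library totals 2 were called, both lower, and Mapk3 lost its call (0.72, limma adjusted p = 0.222). Over all genes the count was 1723 under library totals and 545 to 750 when a library was left out, the lowest without Acute replicate 1, and Ksr1 was -0.40 under library totals. Between ChronicMEKi and Chronic, limma without trend and robust moderation called 0 of the 8 genes and 110 of all genes. Leaving out 1 library gave 0 to 1 and 109 to 279, with the lowest total without ChronicMEKi replicate 3. Between ChronicMEKi and Acute, 0 of the 8 were called with a pseudocount of 0.5, without a filter or on the deposited scale. None was called with the mean over transcript rows or without trend and robust moderation. Over all genes these settings called 408, 382, 387, 592 and 232, in that order, against 457 in the main fit. Under library totals Ksr1 lost its call (0.40, limma adjusted p = 0.44) and Map3k8 gained one (-0.85, 0.0127). Leaving out 1 library gave 0 to 1 and 233 to 512, with the lowest total without ChronicMEKi replicate 2. The cause was not tested. The pausing difference between Chronic and Acute was called for 1 gene with a pseudocount of 0.5, 22 with a pseudocount of 20, 20 without a filter, 4 under library totals, 2 on the deposited scale, 2 with the mean over transcript rows and 0 to 1 when a library was left out. Between ChronicMEKi and Acute it was called for 1 gene with a pseudocount of 20, 1 without a filter and 1 with the mean over transcript rows. None of these was among the 8.

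Replicate numbers did not pair the libraries: deviations from the group means correlated at -0.53 to 0.10 between libraries of the same number and at -0.37 to 0.51 between those of other numbers, and 2 of 9 libraries correlated best with their own number. With the replicate number as a block, 5497, 2956 and 4263 genes were called in the gene body and 865, 260 and 514 in the pause region, in the order of the comparisons above. The block moved Map2k1 between Chronic and Acute past the threshold (0.37, limma adjusted p = 0.0446) and changed no other gene-body call among the cascade genes. In the pause region it changed no call of Mapk3, Ksr1 or Map3k8. Calls of the other named genes were not checked with the block. The paired test of the ratio cannot go below 0.25 with 3 pairs. Leaving out 1 library leaves 2 in its group. Depth in reads is unknown, so the counting error behind weak signals, such as those of Mapk3 or of the pause region, could not be given.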
